A study of Caenorhabditis elegans with 2 samples.

Results

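The 250 regions described here are the X-linked candidate regions of highest pooled MBF-1 ChIP-seq signal at the starts of protein-coding genes in L2 larvae of Caenorhabditis elegans. They were taken from the list of 30000 candidate regions that the authors called on pooled replicates. Of its 5855 regions on X, 871 had a summit within 500 bp of the start of a protein-coding gene, and the 250 of highest pooled signal were kept, which left 621 for comparison. Pooled signal chose the regions, so its values are given as a description, and no test was run on any measure. The regions had a pooled signal of 24.8 to 58.3 with a median of 29.1, against 15.5 to 24.8 with a median of 18.7 in the remaining regions. They are strong only within this class: another 1320 X regions away from coding starts reached the same signal, and the highest X region had 594.

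The samples form 1 group of 2 biological replicates of whole L2 larvae, male and female pooled, with no second condition. Strain OP427 carries the unc-119(ed3) allele on chromosome III and the transgene wgIs427, from which MBF-1 is expressed with GFP-FLAG at its C-terminus. The antibody label of both samples reads mbf-1, and whether untagged MBF-1 also contributed to the profile is not known. Larvae were profiled whole, so tissues are not told apart. No source used here gives the promoter that drives the transgene. Chromatin was fragmented by sonication. Replicate 1 had 19135 candidate regions, 3681 of them on X, with a lowest signal of 10.9. Replicate 2 had 23203 candidate regions, 4619 of them on X, with a lowest signal of 9.99. Signal is the authors' value for a region on a scale that the sources used here do not state, so a value was read against its own list and signals were not compared in level between the replicate lists. Sequencing depth is unknown. Intervals of shares below are exact Clopper-Pearson intervals at 95% that cover counting error only. The candidate lists include background by design, so a region was not read as bound.

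MBF-1 belongs to the multiprotein bridging factors, small conserved coactivators that in yeast and Drosophila link transcription factors of the bZIP class to the TATA-binding protein. Such factors do not read a DNA sequence of their own in those systems, but reach promoters through their partners. The X chromosome of C. elegans is under dosage compensation in hermaphrodites, where a condensin-containing complex lowers its transcription, and it is rich in genes of somatic tissues such as neurons and muscle. Many worm genes also have trans-spliced leaders, so that an annotated gene start can lie downstream of the site where RNA polymerase II initiates.

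Sequence is shown for the 8 regions of highest signal whose summit and 75 bases to each side touch no annotated exon or UTR. Whether these windows are transcribed was not tested. All are the plus strand of X in WBcel235, the same assembly as ce11, written from 5' to 3'. Capitals mark matches, on either strand, to the 10 short motifs that were searched, namely the repeat GAGAGA, the GATA-factor site TGATAA, the bZIP-type sites TGACTCA and TGACGT, the E-box CACGTG, the core promoter element TATAAA, the GC-rich GGGCGG, the run TTTTTTT, the splice-site sequence TTTCAG and the dosage compensation motif core GCGCAGG.
serp-1.1 (chrX:15841412-15841562): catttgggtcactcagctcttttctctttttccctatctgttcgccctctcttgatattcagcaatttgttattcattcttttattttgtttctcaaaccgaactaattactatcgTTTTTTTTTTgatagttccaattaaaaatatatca
ZC506.1 (chrX:9958533-9958683): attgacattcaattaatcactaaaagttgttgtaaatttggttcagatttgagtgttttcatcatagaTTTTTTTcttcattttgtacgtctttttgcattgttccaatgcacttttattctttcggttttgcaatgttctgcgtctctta
bet-2 (chrX:10568790-10568940): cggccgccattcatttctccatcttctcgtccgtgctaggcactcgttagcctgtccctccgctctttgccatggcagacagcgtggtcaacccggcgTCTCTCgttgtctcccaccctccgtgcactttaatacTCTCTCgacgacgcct
tag-343 (chrX:16675141-16675291): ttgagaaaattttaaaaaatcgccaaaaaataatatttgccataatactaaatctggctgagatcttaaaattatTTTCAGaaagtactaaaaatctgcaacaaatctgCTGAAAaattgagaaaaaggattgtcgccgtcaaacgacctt
C05G5.2 (chrX:14747015-14747165): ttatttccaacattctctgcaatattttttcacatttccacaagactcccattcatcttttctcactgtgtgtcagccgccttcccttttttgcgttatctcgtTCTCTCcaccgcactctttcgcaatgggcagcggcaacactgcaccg
rpl-11.2 (chrX:2242887-2243037): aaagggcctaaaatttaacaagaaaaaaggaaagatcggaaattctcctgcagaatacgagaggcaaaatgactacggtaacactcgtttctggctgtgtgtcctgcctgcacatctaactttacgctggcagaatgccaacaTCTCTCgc
atf-6 (chrX:12480639-12480789): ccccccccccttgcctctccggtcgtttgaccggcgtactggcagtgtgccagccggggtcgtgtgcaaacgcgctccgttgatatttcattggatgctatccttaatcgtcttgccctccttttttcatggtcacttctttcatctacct
asb-2 (chrX:4469205-4469355): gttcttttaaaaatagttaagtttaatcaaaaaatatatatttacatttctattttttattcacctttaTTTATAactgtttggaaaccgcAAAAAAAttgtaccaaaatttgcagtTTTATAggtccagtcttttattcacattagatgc

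The windows differ widely in composition. G+C ran from 23.2% at asb-2 to 58.9% at bet-2, with 54.97% at atf-6. GAGAGA, on the minus strand and so printed as TCTCTC, is found at bet-2, C05G5.2 and rpl-11.2. A run of T or A is marked at serp-1.1, ZC506.1 and asb-2. TTTCAG and its reverse complement are marked only at tag-343 among the 8, and the atf-6 window holds none of the 10 motifs.

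Only 4 of the 250 regions were among the 132 peaks of the authors' IDR list, which keeps regions that rank alike in the replicates (IDR, irreproducible discovery rate). Over all 871 X regions at coding starts the share on that list was 0.459%, and none of the remaining 621 was on it. That list begins at a pooled signal of 55.6, so this count follows from the signal that chose the regions. The 4 regions lay upstream of serp-1.1, ZC506.1, bet-2 and tag-343.

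At serp-1.1 (WBGene00010337) the summit lay 85 bp upstream of the start, and the pooled signal was 58.3, with 25.2 in replicate 1 and 33.4 in replicate 2. At ZC506.1 (WBGene00013919), 352 bp upstream, it was 58.1 pooled, 42.9 in replicate 1 and 19.9 in replicate 2. The gene bet-2 (WBGene00010199) encodes a BET-family bromodomain protein, a reader of acetylated histones. Its region, 408 bp upstream, had 57.4 pooled, 25.5 in replicate 1 and 35.8 in replicate 2. The region of tag-343 (WBGene00018374), 484 bp upstream, had 57.2 pooled, 27.5 in replicate 1 and 36.02 in replicate 2. Within its own list, each of these replicate values stood above at least 97.6% of the regions, except that of ZC506.1 in replicate 2, which stood above 92.5%.

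Further regions among the 25 of highest pooled signal are given by the known role of the gene with the nearest start. This grouping was made for reading only and after the values were seen. At ucr-2.1, dhs-25 and C28G1.2 another coding start also lay within 500 bp of the summit. Of genes with roles in chromatin, transcription or sex determination, sor-3 encodes an MBT-repeat protein of the Polycomb-like silencing system of the worm, and its region (chrX:353198-353577), 231 bp upstream, had 52.9 pooled, 21.8 in replicate 1 and 28.95 in replicate 2. The gene atf-6 encodes a bZIP factor of the endoplasmic reticulum stress response; its summit was 234 bp upstream, with 47.8 pooled, 22.2 in replicate 1 and 25.8 in replicate 2. The gene sdc-2 directs the dosage compensation complex to X in hermaphrodites. Its region (chrX:11522197-11522576), 320 bp upstream, had 45.6 pooled, 20.2 in replicate 1 and 29.5 in replicate 2. At tra-4 (chrX:2857415-2857794), which acts in sex determination, the summit was 2 bp upstream of the start, with 42.9 pooled, 16.4 in replicate 1 and 18.9 in replicate 2. Within the lists, these regions stood above 76.2% (tra-4) to 95.1% (atf-6) of replicate 1 and above 90.3% (tra-4) to 99.1% (sdc-2) of replicate 2.

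Others lay at genes for ribosomal, mitochondrial and endoplasmic reticulum proteins. The ribosomal protein gene rpl-11.2 (WBGene00004423), for a protein of the large subunit, had a region 344 bp upstream with 49.8 pooled, 17.1 in replicate 1 and 28.4 in replicate 2. The gene asb-2 encodes subunit b of the mitochondrial ATP synthase, and its region, 486 bp upstream, had 47.4 pooled, 31.97 in replicate 1 and 20.6 in replicate 2. A core protein of respiratory complex III is encoded by ucr-2.1, where the region (chrX:12018059-12018438), 180 bp upstream, had 46.7 pooled, 16.02 in replicate 1 and 30.1 in replicate 2. The gene pdi-6 encodes a protein disulfide isomerase of the endoplasmic reticulum. Its summit (region chrX:7068369-7068748) lay 4 bp inside the gene, in the 5' UTR, with 41.3 pooled, 18.4 in replicate 1 and 22.4 in replicate 2. The replicates ordered these genes differently: asb-2 was the highest of the 4 in replicate 1, above 99.4% of that list, and the lowest of the 4 in replicate 2, above 93.8%.

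At the muscle and neuronal genes dim-1 and unc-58 the summit lay inside the gene. The gene dim-1 encodes an immunoglobulin-domain protein of body-wall muscle attachment; the summit (region chrX:8057657-8058036) was 373 bp inside it, in a coding exon, with 47.6 pooled, 16.4 in replicate 1 and 27.2 in replicate 2. The potassium channel family gene unc-58 (region chrX:10132672-10133051) had a summit 320 bp inside, in an intron, with 42.4 pooled, 19.6 in replicate 1 and 23.6 in replicate 2. The gene unc-115 encodes an actin-binding protein of axon guidance. Its region (chrX:10146673-10147052), 29 bp upstream, had the highest G+C of the 25 strongest, 58.2% over 201 bp, with 47.3 pooled, 23.6 in replicate 1 and 23.4 in replicate 2. At madd-3 (chrX:14296878-14297257), a LAMMER-type kinase gene needed for muscle arm extension, the summit was 409 bp upstream, with 44.0 pooled, 19.8 in replicate 1 and 23.7 in replicate 2. Within the lists, unc-115 stood above 96.5% of replicate 1 and 97.03% of replicate 2, and dim-1 above 76.1% and 98.7%.

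Enzyme genes account for several others of the 25. At dhs-25, a short-chain dehydrogenase gene, the summit was 110 bp inside in an intron, with 44.7 pooled, 30.5 in replicate 1 and 12.8 in replicate 2. At apy-1, an apyrase gene, it was 124 bp upstream, with 43.0 pooled, 26.1 in replicate 1 and 14.02 in replicate 2. At cah-4, a carbonic anhydrase gene, it was 317 bp upstream, with 42.02 pooled, 25.2 in replicate 1 and 12.2 in replicate 2. Within the lists, these 3 stood above 97.6% to 99.3% of the regions in replicate 1 but above only 48.2% (dhs-25), 62.6% (apy-1) and 40.6% (cah-4) in replicate 2. The gene sec-3, for an exocyst subunit, was the only one of the 25 with no region in replicate 2; it had 41.4 pooled and 28.9 in replicate 1. At hst-2, for a heparan sulfate sulfotransferase, the summit was 82 bp inside, in a coding exon, with 40.1 pooled, 19.8 in replicate 1 and 24.3 in replicate 2. Besides ZC506.1, 4 genes of the 25 are given by sequence name alone: C05G5.2 with 53.7 pooled, C28G1.2 with 48.98, C14A11.9 with 43.9 and C14A11.6 with 41.3. Among all 25, 20 summits lay upstream and 20 were intergenic, and 24 had a region in both replicates. Their median position within a list was above 95.1% of the regions in replicate 1 (n = 25) and above 97.5% in replicate 2 (n = 24). The pooled signal that ranked them contains both replicates, so these positions are a description and no independent support.

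At the lower end, fard-1 with 24.79 and cut-5 with 24.77 were just inside, and T01B4.3 with 24.76 and K04G11.1 with 24.75 just outside. The 2 inside had a region in replicate 1 only, of 18.3 at fard-1 and 14.2 at cut-5. T01B4.3 had 11.5 in replicate 1 and 11.7 in replicate 2, and K04G11.1 had 14.2 in replicate 2 only. Of these 4 only T01B4.3, just outside, was found in both replicates.

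Replicate presence fell steeply with rank. A candidate region overlapping by at least 1 bp was found in both replicates for 156 of the 250 chosen regions (62.4%, interval 56.1% to 68.4%). The share was 25.9% over all 871 X regions at coding starts and 11.3% (70 regions, interval 8.89% to 14.03%) in the remaining 621. In successive bands of 50 ranks it was 94%, 76%, 58%, 52% and 32%. A further 34 regions (13.6%) had a region in replicate 1 only and 58 (23.2%) in replicate 2 only, the list with more regions. R11G1.2, with 29.8 pooled, and C47D2.1, with 28.99, had none in either replicate. Because both replicates are inside the pooled signal, this decline is a description of the pooled ranking and no independent support for it.

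**Figure D1:**
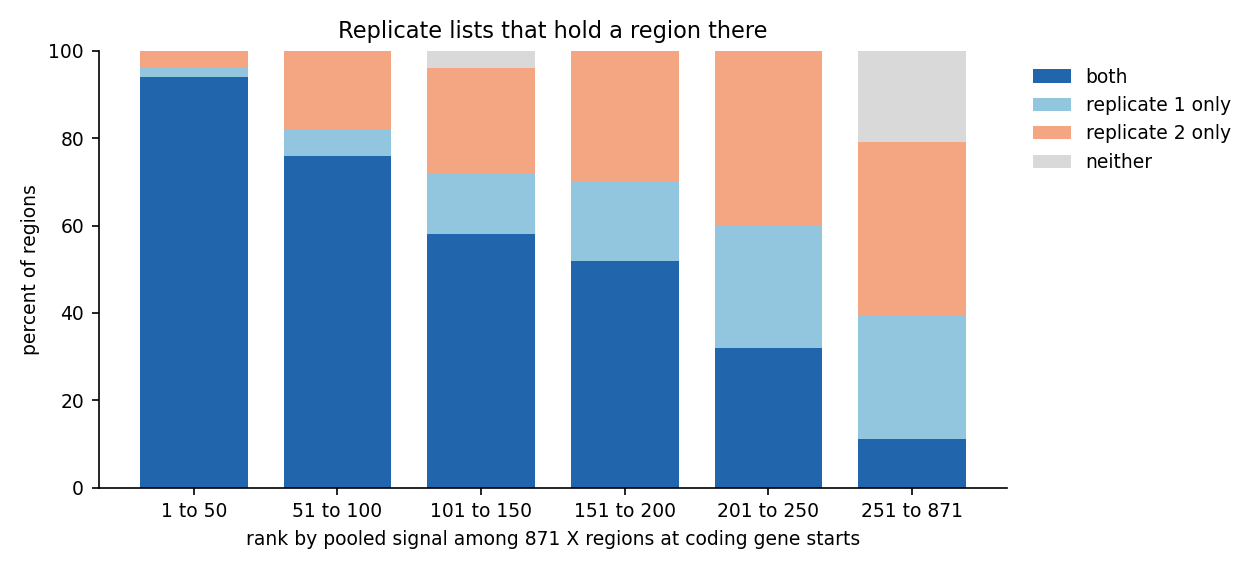
Share of X regions at coding starts (y axis, percent) with a candidate region in both replicates, replicate 1 only, replicate 2 only or neither, by rank of pooled signal (x axis). The share with both falls from 94% in ranks 1 to 50 to 32% in the last band of the chosen regions and 11.3% beyond.

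Choosing by one replicate and reading the other keeps choice and readout apart. Replicate 1 alone had 535 X regions at coding starts. Of its 250 strongest, 123 (49.2%, interval 42.8% to 55.6%) overlapped a replicate 2 region, against 95 of the other 285 (33.3%, interval 27.9% to 39.1%). Replicate 2 alone had 720, and 92 of its 250 strongest (36.8%, interval 30.8% to 43.1%) overlapped a replicate 1 region, against 23.8% of the other 470 (interval 20.05% to 27.9%). In both directions the stronger regions recurred more often, by intervals that do not overlap. The recurrence was highest at the top: with replicate 1 choosing it was 62% in ranks 1 to 50 and again in ranks 51 to 100, then 40.7% in the other 150. With replicate 2 choosing it was 56%, 40% and 29.3% in the same ranks. Of the pooled choice, the replicate 1 choice overlapped by 132 of its regions (52.8%) and the replicate 2 choice by 135 (54%). Only 56 of the 250 regions chosen by replicate 1 overlapped one chosen by replicate 2.

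Within the 156 regions found in both replicates, the ordering by signal was shared only weakly. Over these regions Spearman's rho was 0.212 and Pearson's r was 0.281, and without the 2 regions farthest from the median in replicate 1 they were 0.194 and 0.299 over 154. These are descriptions: the points share the same 2 libraries, and they were selected on the pooled signal. The summits of the overlapping replicate regions lay a median of 70.5 bp apart, and 96 pairs (61.5%) were within 100 bp. In the 70 remaining regions found in both, the median gap was 189 bp and 19 (27.1%) were within 100 bp.

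**Figure D2:**
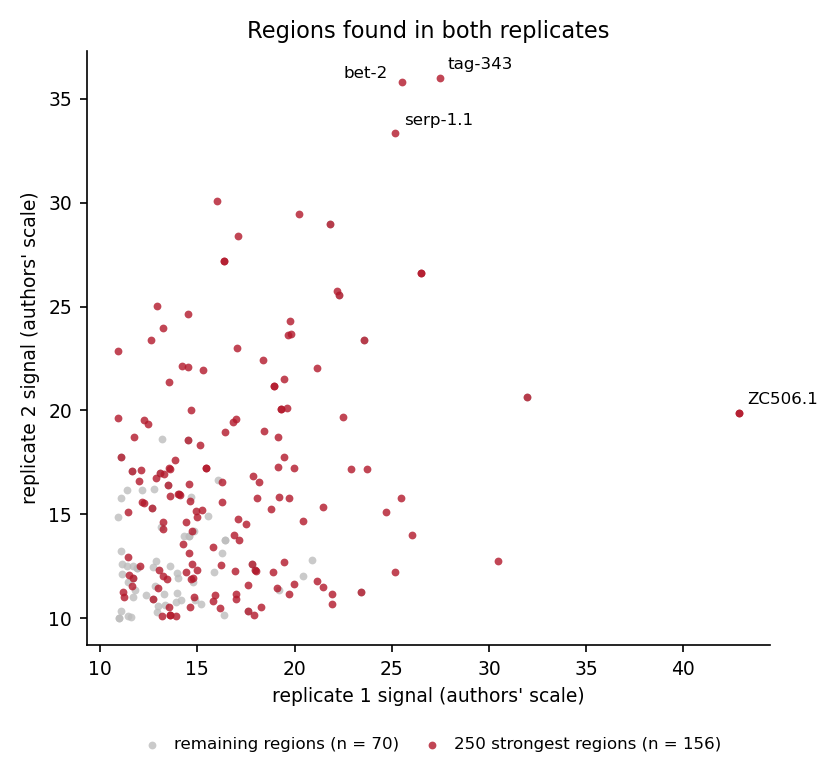
Signal in replicate 2 (y axis) against signal in replicate 1 (x axis), both on the authors' scale, for the 156 chosen (red) and 70 remaining (grey) regions with a region in both replicates; each point is a region. The axes are separate lists and not 1 scale; a region high on an axis is often low on the other, with a rho of 0.212 over the chosen regions.

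The largest disagreements of rank among these 156 were at F23D12.1, cbs-1 and actl-1. F23D12.1 had 35.3 pooled, 10.9 in replicate 1 and 22.9 in replicate 2, which is rank 156 in the first replicate and rank 23 in the other. At cbs-1, which encodes cystathionine beta-synthase of the transsulfuration pathway, the order was opposite, with 35.8 pooled, 21.9 in replicate 1 and 10.7 in replicate 2. The values at actl-1 were 31.1 pooled, 23.4 in replicate 1 and 11.3 in replicate 2. Within the lists, F23D12.1 stood above 1.05% of replicate 1 and 96.6% of replicate 2, cbs-1 above 94.7% and 14.5%, and actl-1 above 96.4% and 24.9%.

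Summits lay mostly upstream of the gene start. Of the 250, 159 were upstream (63.6%, interval 57.3% to 69.6%), against 356 of the remaining 621 (57.3%, interval 53.3% to 61.3%) and 58.7% of 5427 autosomal regions at coding starts, so the intervals of chosen and remaining overlap. The median distance from the start was 268.5 bp in the chosen and 267.0 bp in the remaining regions, and 236.0 bp on the autosomes. The chosen summits were spread over the whole window and not gathered at the start: 27.2% lay 301 to 500 bp upstream, 26% lay 101 to 300 bp upstream and 10.4% within 100 bp upstream. Among the remaining regions the same bins held 26.6%, 19.6% and 11.1%. By place, 142 chosen summits were intergenic (56.8%, against 49.1% of the remaining), 56 lay in an intron of a coding gene (22.4% against 26.2%), and 26 in a coding exon (10.4% against 14.2%). The other 26 were 10 in 3' UTRs, 8 in 5' UTRs and 8 in exons of non-coding genes.

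**Figure D3:**
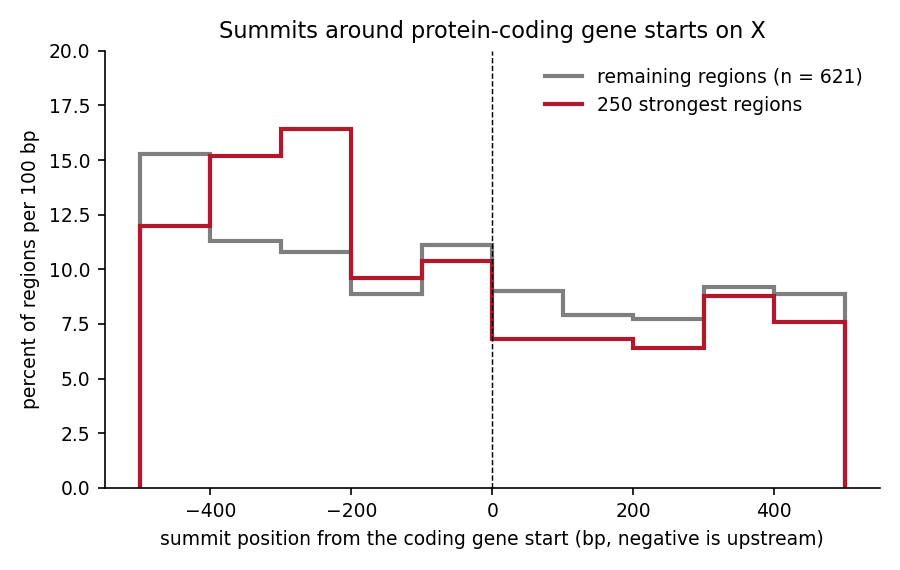
Share of regions (y axis, percent) by the position of the summit relative to the nearest coding gene start (x axis, bp, negative upstream), for chosen and remaining regions. In the wider position bins of the text, the chosen regions exceed the remaining ones most at 101 to 300 bp upstream, 26% against 19.6%.

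X regions were not concentrated at coding starts. Windows of 500 bp around coding starts cover 15.01% of X, and 14.9% of X candidate regions had their summit there. On the autosomes such windows cover 19.6% of the sequence and held 22.5% of 24124 candidate regions. The lowest chosen signal divided both classes at a similar point: 28.1% of autosomal regions at coding starts reached it, against 28.7% of those on X. The highest autosomal value at a coding start was 197, above the 58.3 on X.

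tRNA gene starts were more frequent at the chosen regions than at the remaining ones. tRNA genes are transcribed by RNA polymerase III from promoters inside the gene. A tRNA gene start lay within 500 bp of the summit in 11 of 250 chosen regions (4.4%, interval 2.22% to 7.74%), against 3 of 621 remaining regions (0.483%, interval 0.0997% to 1.41%) and 1.61% over all 871. The intervals do not overlap, but they treat the regions as separate, and the chosen regions at C28G1.2 overlap at a shared tRNA gene. The tRNA class was noticed in these data, so the difference is a description only. Of 276 tRNA genes on X, 26 have a start within 500 bp of a coding start, and 12 of these 276 were at a chosen region. In successive bands of 50 ranks there were 4, 3, 3, 1 and 0 such regions.

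The summit was nearer to the tRNA start than to the coding start in 9 of the 11, with a median distance of 76.0 bp against 320.0 bp. At sor-3 the summit was 52 bp upstream of the minus-strand tRNA gene WBGene00022908 (chrX:353255-353336), with the values given above. At egl-17, the gene of a fibroblast growth factor ligand, it was 42 bp upstream of the tRNA gene WBGene00023035 (chrX:489868-489939), with 35.9 pooled, 18.4 in replicate 1 and 18.99 in replicate 2. At C28G1.2, 2 overlapping chosen regions share the tRNA gene WBGene00022947 (chrX:8836113-8836184). The stronger, with 48.98 pooled, had its summit 137 bp upstream of that gene and the weaker, with 33.7, had it inside the gene, 63 bp from the start. Both overlapped the same replicate regions, of 26.5 in replicate 1 and 26.6 in replicate 2. The region in unc-58 covers the starts of WBGene00014508 and WBGene00014509, and its summit lies between them, 184 and 181 bp away. At nas-10 the summit was 54 bp from WBGene00014436, with 33.3 pooled, 18.9 in replicate 1 and 12.2 in replicate 2.

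The other 5 tRNA regions were at srd-44, C25F6.1, lgc-25, M163.11 and cyp-14A4, with pooled signals of 31.8, 29.7, 29.6, 28.6 and 27.97. The regions at srd-44, C25F6.1 and lgc-25 were found in replicate 2 only, at 19.05, 17.6 and 20.04, and the other 8 of the 11 in both replicates. Mean G+C at the 11 was 39.2% ± 6.54 (SD over regions), above the 33.4% ± 7.54 of all chosen regions. One of the 3 remaining tRNA regions, with 15.5 pooled, lies beside the strong sor-3 region at the same tRNA gene. Reads of near-identical tRNA genes can map to several copies, and no source used here says how the authors treated them, and their part in these counts was not tested. With replicate 2 alone choosing the regions, the tRNA share was 2.8% against 1.91% in the rest, and with replicate 1 alone 4.0% against 0.351%. With a window of 200 bp the order turned, at 0.8% against 1.56%, where only 314 regions qualify and 250 of them are kept.

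Non-coding starts of all classes together differed less. Any non-coding gene start, tRNA genes included, lay within 500 bp in 34 chosen regions (13.6%, interval 9.61% to 18.5%). The same held for 60 remaining regions (9.66%, interval 7.45% to 12.3%) and 10.8% over all. A share without the tRNA genes was not computed. The class annotated as ncRNA accounted for 28 chosen regions (11.2%) and 54 remaining (8.70%). Within 100 bp of the summit there were 18 non-coding starts at 15 chosen regions, 7 of tRNA genes, 10 of ncRNA genes and 1 of a piRNA gene. Apart from the tRNA genes, the strongest were C28G1.9, 34 bp from the C28G1.2 summit, and T06H11.17 and T06H11.18 at unc-58. C28G1.8 followed, 19 bp from the weaker C28G1.2 summit. Of these, all but C28G1.9 enclose a tRNA gene counted above, so they are not separate loci. The ncRNA genes at nas-10 and cyp-14A4 also enclose such a tRNA gene. Divergent pairs of coding starts flanked 6 chosen summits (2.4%) and 7 remaining ones (1.13%), with 1.49% over all, and the intervals of these shares, 0.886% to 5.15% and 0.454% to 2.31%, overlap.

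**Figure D4:**
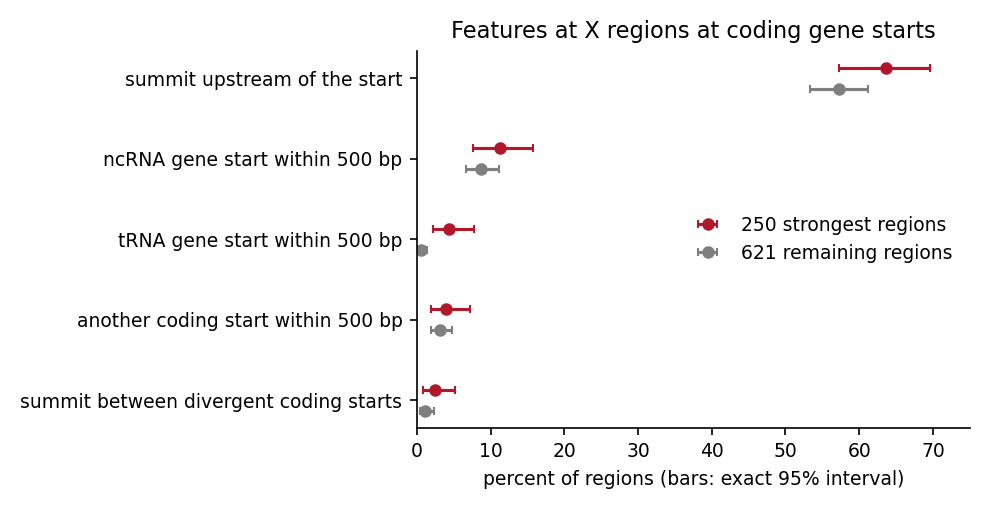
Share of chosen and remaining X regions at coding starts (percent) whose summit is upstream, is near another coding start, an ncRNA start or a tRNA start, or lies between divergent starts, with exact 95% intervals for counting error. tRNA gene starts stand at 4.4% of chosen and 0.483% of remaining regions. With replicate 2 alone choosing, which is not drawn, the shares were 2.8% and 1.91%.

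Base composition was close between the groups on average and wider among the strongest. Mean G+C over the 201 bp around the summit was 33.4% ± 7.54 (SD, n = 250 regions) in the chosen and 32.8% ± 6.29 (n = 621) in the remaining regions. Both were below the 35.3% ± 6.79 of the 201 bp before all 2731 X coding starts and the 35.2% of X as a whole. The share of windows over 45% G+C was 9.2% in the chosen (23 regions) and 3.86% in the remaining (24 regions), and 18% in ranks 1 to 50. Ranks 1 to 50 had a mean of 35.8% ± 9.52, and every other band of the chosen regions had a mean between 32.2% and 33.1%. Among the 25 strongest, 7 were over 45%, at genes that include bet-2, atf-6, unc-115, sor-3 and pdi-6.

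Motifs were counted once per 201 bp window, on both strands; matches of different motifs may share bases. GAGAGA was in 37 chosen windows (14.8%, interval 10.6% to 19.8%) and 56 remaining windows (9.02%, interval 6.88% to 11.6%), but also in 16.9% of the promoters of all X coding genes, read over the 201 bp before the start. The intervals of chosen and remaining windows overlap, and the chosen share was below that of X promoters. Over 50 bp to each side of the summit the shares were 5.6% and 3.86%, a difference of 1.74 percentage points. The windows with GAGAGA had a mean G+C of 41.2% and those without it 32.01%. Where G+C was 40% or more, 19 of 38 chosen windows (50%) and 16 of 71 remaining windows (22.5%) held it. At 35% to under 40% G+C the shares were 15.9% and 14.7%, and at 30% to under 35% they were 8.82% and 4.49%. Under 30% G+C the shares were 5.0% and 5.08%. In ranks 1 to 50 it was in 24% of windows. With regions chosen by replicate 1 alone the difference between chosen and remaining was 2.03 percentage points, against 5.78 with the pooled list. With replicate 2 alone choosing it was 5.01 percentage points.

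TTTCAG, which matches the end of worm introns at the 3' splice site, was less frequent, at 25.2% of chosen (interval 19.9% to 31.1%), 32.05% of remaining (interval 28.4% to 35.9%) and 32.8% of X promoters. Those intervals overlap, and with a window of 200 bp the difference took the other sign, at 9.36 percentage points. It was -7.68 percentage points with replicate 1 alone choosing and -4.34 with replicate 2 alone. The run TTTTTTT was in 48.8% of chosen, 42.8% of remaining and 42.4% of X promoters. The core promoter element TATAAA was in 31.6%, 29.3% and 29.2%, and the GATA-factor site TGATAA in 24%, 23.2% and 21.5%. The bZIP-type motifs TGACTCA and TGACGT were in 3.6% and 7.2% of chosen windows, 2.74% and 6.28% of remaining windows and 2.78% and 7.43% of X promoters. CACGTG was in 2.0%, 3.22% and 3.33%, and GGGCGG in 2.8%, 3.54% and 6.74%. GCGCAGG, the core of the motif of the sites that recruit the dosage compensation complex to X, was in 1 chosen window, at egl-17, in 2 remaining windows and in 0.403% of X promoters. Of the 10 motifs, GGGCGG and TTTCAG had an X promoter share above the 95% interval of the chosen windows and TTTTTTT one just below it, and the others had it inside the interval. A match describes the letters only and not a bound site.

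The genes at the chosen regions did not gather in the gene lists examined. A coding start within 500 bp of a chosen summit was found for 250 of 2731 X protein-coding genes (9.15%), 241 of them the nearest gene of a region. Over 23 lists of genes by family or process, 25 of 348 listed genes on X were at a chosen region (7.18%). None of 37 neuropeptide and insulin genes was, nor any of 8 helix-loop-helix factors, 5 vitellogenins, 5 chaperones, 4 GATA and endoderm or epidermis factors, 3 translation factors or 3 C-type lectins, and no proteasome gene of the list lies on X. Cuticle collagens had 1 of 31, dpy-3, with 31.7 pooled, 18.04 in replicate 1 and 12.3 in replicate 2. Chemoreceptors had 1 of 34, srd-44, named above. Of the transcription factor lists, homeobox genes had 1 of 24 (ceh-93, 33.8 pooled) and nuclear hormone receptors 1 of 27 (nhr-40, 29.99 pooled). The bZIP list had 1 of 3, atf-6. With the remaining regions included, nuclear hormone receptors had 13 of 27 (48.1%), beside 29.99% of all X genes. There homeobox genes had 6 of 24, helix-loop-helix factors 1 of 8, bZIP genes 1 of 3 and the GATA list 0 of 4. Counts of 1 gene per list are too small to call transcription factors few or many at the chosen regions.

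Lists of channels, receptors, muscle genes and adhesion genes had shares of 6.25% to 13.6%, beside 9.15% of all X genes, while neuropeptides stood at 0% and chemoreceptors at 2.94%. At any X region at coding starts, chosen or remaining, neuropeptides had 16.2% and chemoreceptors 38.2%, beside 29.99% of all X genes. There the lists of channels, receptors, muscle genes and adhesion genes had 10.5% to 42.9%. Potassium, calcium and sodium-leak channels had 3 of 22. These were unc-58, then unc-2, a voltage-gated calcium channel with 28.8 pooled and 18.2 in replicate 2 only, and cca-1, a T-type calcium channel with 25.4 pooled, 12.995 in replicate 1 and 11.5 in replicate 2. Ligand-gated channels had 2 of 28, lgc-25 and the nicotinic receptor subunit acr-10, with 27.7 pooled, 14.8 in replicate 1 and 11.0 in replicate 2. G protein coupled receptors had 4 of 49, sprr-2 at 34.8 pooled, frpr-2 at 29.3, npr-36 at 25.3 and the tyramine receptor tyra-2 at 25.1. Regions at frpr-2 and tyra-2 were found in replicate 2 only. Axon guidance and adhesion had 2 of 19, the immunoglobulin-superfamily gene rig-1 at 29.9 pooled and the cadherin gene cdh-9 at 27.2. Muscle genes had 1 of 16, dim-1.

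In the smallest lists 1 or 2 genes make the whole count. Dosage compensation and sex determination had 2 of 7, sdc-2 and sdc-1, a zinc-finger gene of the same pathway with a summit 436 bp inside it and 25.2 pooled, 12.1 in replicate 1 and 12.5 in replicate 2. The synMuv and vulval signalling list had 2 of 6. The synMuv gene lin-15B had 28.8 pooled, 19.98 in replicate 1 and 11.7 in replicate 2, and the heterochronic gene lin-14, which sets early larval cell fates, had 26.5 pooled and 18.2 in replicate 2 only. The V-ATPase, the proton pump of acidic organelles, had 2 of 3, vha-20 with 33.6 pooled, 14.7 in replicate 1 and 20.01 in replicate 2, and vha-15 with 28.6 pooled, 11.8 in replicate 1 and 18.7 in replicate 2. Ribosomal proteins had 1 of 2, rpl-11.2, and cytochrome P450 and glutathione transferase genes had 1 of 14, cyp-14A4.

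Some genes carried more than 1 chosen region. There were 8, and sprr-2 had 3, of 34.8, 34.6 and 34.1 pooled, at 352 bp inside the gene and at 481 and 282 bp upstream. The others with the highest summed signal were ZC506.1 with 58.1 and 38.1, C28G1.2 with 48.98 and 33.7, dim-1 with 47.6 and 32.02, C14A11.6 with 41.3 and 30.04, and slc-25A21 with 37.3 and 26.8. At 5 of these genes, all but C14A11.6, 2 of the chosen regions overlap each other and overlap the same replicate regions, so they are not separate observations. Merging the overlaps left 245 regions.

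Along X the chosen regions were present in every 1 Mb bin. The bins of full length held 5 to 25, and 2 to 3 Mb held the most, 25 regions for 135 coding starts, while 4 to 5 Mb held the fewest, 5 for 154. With X cut into 3 parts of equal length, they held 28.8%, 34.8% and 36.4% of the chosen regions from left to right, beside 31.9%, 35.7% and 32.4% of coding starts.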

How the data were processed

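MBF-1 ChIP-seq was measured in 2 biological replicates that form 1 group. The lists deposited by the authors are narrowPeak files that give a signal value for each candidate region of replicate 1, replicate 2 and the pooled replicates, and for the IDR-thresholded peaks. No source used here names the aligner, the peak caller with its settings and signal scale, or the threshold of the IDR list. Controls were named in the labels and not analysed here. Sequencing depth is unknown, so no detection limit in reads could be given for a missing region.

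Coordinates are those of the ce11 lists, counted from 1. Genes came from Ensembl release 115 of WBcel235, the same assembly, and sequence from RefSeq. The ce10 lists were not used. Each summit was assigned to the coding gene whose start was nearest. A pooled region took the highest signal among the replicate regions that overlapped it by at least 1 bp. Sequence features were read 100 bp to each side of the summit.

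The regions, gene lists and motifs were chosen with earlier results of these data known. Named genes follow a rule: the 25 regions of highest pooled signal, up to 4 genes per list, the 3 largest rank disagreements, the 2 regions on each side of the cutoff, up to 6 genes with several regions and up to 6 non-coding genes within 100 bp of a summit. R11G1.2, C47D2.1 and the other tRNA regions were named after their values were seen. Alternatives were other overlaps, 100 or 500 regions kept, windows of 200 and 1000 bp, transcript starts, 50 bp sequence windows and each replicate alone. Those for tRNA genes, and those for GAGAGA and TTTCAG with each replicate alone or another window around the start, were added after the data were seen. No hypothesis test was run. Procedures were tested on simulated data. Python 3.11.15, pandas 2.3.3, numpy 2.4.6, scipy 1.17.1 and matplotlib 3.10.9 were used.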

Additional observations from a re-analysis of the deposited data

How the results depend on the processing

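Of 81 alternatives, 61 kept their sign and stayed within the interval of the main value, 16 moved outside it or, for the count of IDR peaks, by over 1.5 times, and 4 differences changed sign. For motif differences that interval carried the counting error of the chosen share alone, with the remaining share held fixed. For G+C it was an interval for a difference of means. The share of chosen regions found in both replicates, 62.4%, depended most on the settings. It was 55.2% when the overlap had to cover at least 50% of the shorter region and 42.4% when summits had to lie within 100 bp. It was 85.0% with 100 regions kept, 38.6% with 500 kept, 30.4% with a window of 200 bp and 77.6% with one of 1000 bp. Choosing by a single replicate and reading the other gave 36.8% without replicate 1 and 49.2% without replicate 2. The number of IDR peaks, 4, became 1 with a window of 200 bp and 8 with one of 1000 bp, and lay between 3 and 6 with a replicate left out.

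The share upstream fell to 55.2% with a window of 200 bp and was 61.6% to 62.0% with a replicate left out. The TGACGT difference rose to 5.03 percentage points with 100 regions kept. The G+C difference of 0.579 percentage points became -0.0653 without replicate 2, inside the interval of -0.478 to 1.64 around its main value, and 0.369 without replicate 1. The TGATAA difference of 0.81 points became -3.87 with 100 regions kept, the GGGCGG difference of -0.74 points became 0.39 with 50 bp to each side of the summit, and the TTTCAG difference of -6.85 points became 9.36 with a window of 200 bp. The gene-list share was 15.8% and the tRNA share 2.2% with 500 regions kept. The tRNA share was 0.8% with a window of 200 bp, 8.0% with one of 1000 bp, 7.0% with 100 kept and 2.8% to 4.0% with a replicate left out. The cause of these changes was not tested, except that a wider or narrower choice holds weaker or stronger regions by construction. Windows of 200 and 1000 bp had 314 and 1788 regions to choose from.

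No paired analysis was possible because there is 1 group. With 2 replicates, the spread between biological samples is poorly known, and intervals over regions cover counting error only.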
